A study of Paralichthys olivaceus with 22 samples.

Results

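The 14 probes described here were chosen from kidney arrays of Japanese flounder (Paralichthys olivaceus) as contig probes that were higher 12 h after an FKC preparation of Streptococcus iniae but not after one of Edwardsiella tarda. A contig probe is a probe whose name in the files starts with JFC. Of the 14052 contig probes, among 14481 probes in all, 7482 were well above background on all 4 S. iniae FKC arrays of 12 h. The rule then kept those at least 1 higher on the log2 scale, or 2-fold, after S. iniae FKC than after PBS, and at most 0.25 higher after E. tarda FKC than after PBS. These 12 h values chose the members, so everything said of them is a description. The 6 h arrays took no part in the choice, and comparisons at 6 h are tested.

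The groups were fish given S. iniae FKC for 12 h (4 arrays) or 6 h (3 arrays), fish given E. tarda FKC for 12 h (4 arrays) or 6 h (3 arrays), and fish given PBS for 12 h or 6 h (4 arrays each). In fish vaccine work FKC commonly stands for formalin-killed cells, and the labels do not spell it out. Dose, route, age and the number of fish behind a sample are not given in the sources used here. The p-values therefore reflect sample-to-sample spread, part of which may be technical. Total RNA of the kidney was labelled with Cy3, 1 sample to an array. RNA of a whole organ cannot tell fewer cells of a type from less RNA per cell.

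As background, S. iniae is a Gram-positive coccus with a polysaccharide capsule, and E. tarda is a Gram-negative rod whose outer membrane carries lipopolysaccharide. Both cause disease in farmed flounder. The kidney of teleost fish is a main blood-forming and immune organ, with myeloid and lymphoid cells around the renal tubules. Killed bacteria present surface components to such cells without an infection, so the 2 preparations offer the organ different sets of microbial molecules.

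Of 14478 contig or accession names on the array, 0 were found among the 30478 genes that RefSeq lists for this species. The members are thus given without gene names, and the tissue could not be checked against marker genes. They are numbered 1 to 14 by the size of their S. iniae difference at 12 h, and 4 are also given by ID under a fixed rule. Member 3 is CUST_2241_PI426483990 of contig JFC07496_1_code and member 4 is CUST_13031_PI426483990 of contig JFC16781_1_code. Member 5 is CUST_3101_PI426483990 of contig JFC22014_1_code and member 14 is CUST_13048_PI426483990 of contig JFC28234_1_code. The 14 probes carry 14 different contig names and 1 spot each, and lay between rows 2 and 171 of the 192 rows of the array.

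Levels are log2 signals minus the 75th percentile of the array, so a level of 0 is that percentile. Each array had 8084 to 10666 probes well above background, the 75th percentile of the signal ran from 209 to 470, and no spot was saturated. Slide 2 held the FKC arrays of 12 h, slide 1 those of 6 h, and slide 3 every PBS array. A comparison with PBS thus cannot tell slide from treatment. S. iniae and E. tarda arrays of the same time share a slide, but each preparation lies in its own row of it. Row and preparation thus cannot be told apart. On 6 spike-in probes well above background at all their spots, which measure added control RNA, S. iniae FKC at 12 h differed from PBS at 12 h by -0.34 to -0.23 and from E. tarda FKC at 12 h by -0.09 to 0.03. E. tarda FKC at 12 h differed from PBS at 12 h by -0.31 to -0.17 on these probes, and PBS at 12 h from PBS at 6 h by -0.25 to -0.09.

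A rise after S. iniae FKC without one after E. tarda FKC was uncommon on these arrays. Both differences were taken from the same 4 PBS arrays, on another slide, so an offset of these moves both together. Its share was not tested. Of 286 detected contig probes with an S. iniae difference of at least 1 at 12 h, 14 met the limit on E. tarda FKC and 272 did not. Over the 286, the median E. tarda difference was 1.74, and 208 had an E. tarda difference of at least 1 as well. The mirror choice, at least 1 after E. tarda FKC and at most 0.25 after S. iniae FKC with detection on all E. tarda arrays of 12 h, found 214 probes. More probes rose after E. tarda FKC at 12 h, with 1726 called higher than PBS by limma against 644 after S. iniae FKC. The counts of 14 and 214 thus do not compare like with like. Another 4 probes with GenBank or POC names met the same values as the 14 members, and the rule leaves them out.

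**Figure D1:**
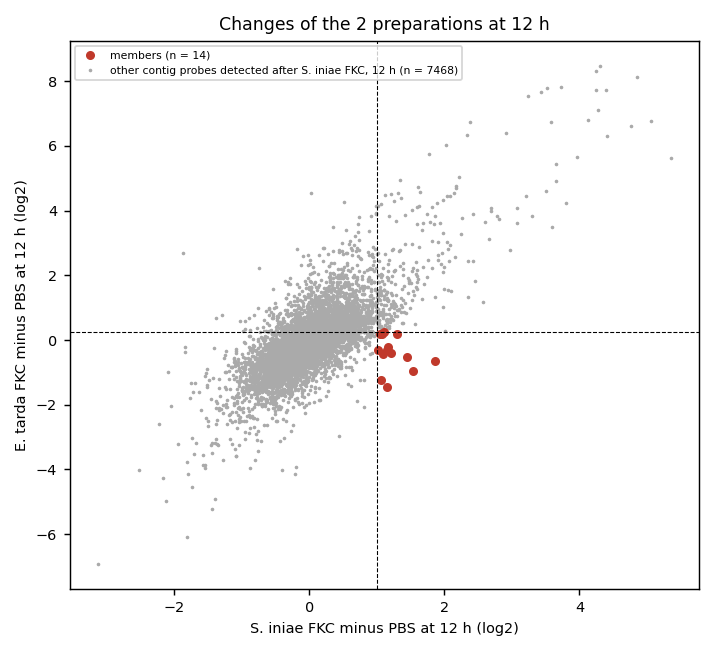
Difference from PBS at 12 h on the log2 scale after S. iniae FKC (x axis) and after E. tarda FKC (y axis) for contig probes well above background on all S. iniae FKC arrays of 12 h. Each point is a probe, the 14 members are red, and dashed lines mark the limits of 1 and 0.25 that chose them; the members lie close to the limit of 1, between 1.02 and 1.86.

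The members' S. iniae differences lacked the large values seen among the other 272 probes. They ran from 1.02 to 1.86 with a median of 1.15, or 2.02-fold to 3.63-fold with a median of 2.21-fold. Members 1 and 2 exceeded 1.5 in measured means, and 10 of 14 lay under 1.25. Member 2 was never well above background after PBS at 12 h, so its 1.54 is not a measured size. The 272 probes had a median of 1.35 and reached 5.35. The lower quartiles were close, at 1.08 for the members and 1.11 for the 272 probes, and the upper quartiles were 1.27 and 1.92. The members' E. tarda differences ran from -1.46 to 0.24 in measured means with a median of -0.35, and 10 of 14 were below 0. Some of these means include arrays that were not well above background. Just inside the limit on S. iniae FKC were differences of 1.02 and 1.04, and just outside it, among probes that met the other limits, were 0.98 and 0.95. Just inside the limit on E. tarda FKC were 0.24 and 0.20, and just outside it were 0.29 and 0.33. The probe at 0.29 had an S. iniae difference of 2.01, above that of every member.

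Most members were dim. Member 14, the brightest, lay at the 89.9th percentile of mean level among the 11066 probes tested, member 6 at the 80.5th and member 9, the dimmest, at the 17.4th, and 9 of 14 lay below the 50th. A group of 5 members (3, 5, 6, 13 and 14) was well above background on all 22 arrays. The other 9 were not, down to 9 of 22 arrays for member 9. The pooled SD within groups had a median of 0.64 over members, from 0.32 to 1.03, against 0.38 over all probes tested.

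Member 1 had the largest S. iniae difference. Its level was -0.36, -0.71, -0.79 and -0.79 on the S. iniae FKC arrays of 12 h, against -3.05, -2.60, -3.48 and -3.60 on the E. tarda FKC arrays and -3.00, -2.41, -1.95 and -2.73 on the PBS arrays of that time. The S. iniae arrays lay above all others of 12 h, with a spread of 0.20 (SD, n = 4), and the E. tarda and PBS arrays overlapped. At 6 h its level was -0.89, -0.33 and -1.04 after S. iniae FKC, -2.05, -1.06 and -1.20 after E. tarda FKC, and -1.81, -1.51, -1.38 and -1.11 after PBS. The S. iniae arrays were the highest at 6 h as well, without overlap with either group. Replicate 3, at -1.04, lay only a small step above E. tarda replicate 2, at -1.06, and PBS replicate 4, at -1.11. That difference from PBS, 0.70 (95% interval 0.08 to 1.31), did not pass the test over all probes (limma adjusted p = 0.289).

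Member 6 was bright and had the smallest pooled SD of the list, 0.32. It stood at 1.22, 2.26, 1.60 and 1.98 after S. iniae FKC at 12 h, at 0.37, -0.01, 0.40 and 0.73 after E. tarda FKC, and at 0.34, 0.73, 0.66 and 0.67 after PBS. The S. iniae arrays again lay above all others of 12 h. After PBS at 6 h, however, its level was 1.43, 1.25, 1.33 and 1.01, which overlapped the S. iniae arrays of 12 h.

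Member 2 was measured less firmly, at -1.49, -2.00, -3.11 and -3.04 after S. iniae FKC at 12 h against -4.51, -3.85, -4.18 and -3.25 after PBS. On PBS arrays of 12 h it was never well above background. With PBS raised to the detection limit of each array where it lay below, the S. iniae FKC mean was at least 2.10-fold higher. The measured means were -2.41 and -3.95.

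Member 14 is the brightest of the list. Its level was 2.94, 4.09, 3.51 and 3.23 after S. iniae FKC at 12 h, against 2.57, 1.94, 1.84 and 2.15 after E. tarda FKC and 2.09, 3.41, 2.04 and 2.16 after PBS. The S. iniae arrays did not overlap the E. tarda arrays but overlapped PBS through replicate 2. At 6 h it stood at 2.15, 1.78 and 1.56 after S. iniae FKC, 2.73, 1.96 and 1.55 after E. tarda FKC, and 2.54, 2.11, 2.46 and 2.07 after PBS, with overlap among the 3 groups. The S. iniae difference from PBS at 6 h was -0.46 (95% interval -1.18 to 0.25, limma adjusted p = 0.596).

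The other members varied in how far 12 h arrays of the groups stood apart. Member 4 had -1.64, -2.09, -0.99 and -1.13 after S. iniae FKC at 12 h, against -2.78, -2.39, -2.71 and -2.40 after E. tarda FKC and -2.11, -2.16, -3.56 and -3.21 after PBS. The S. iniae arrays lay above both groups, but replicate 2 by only a small step over PBS. Member 8 had -1.22, -1.38, -0.92 and -1.66 after S. iniae FKC, against -5.26, -3.39, -3.54 and -3.39 after E. tarda FKC and -2.33, -1.95, -3.02 and -2.45 after PBS. All 3 groups stood apart in member 8, with the E. tarda arrays lowest, and its E. tarda difference of -1.46 was the lowest of the list.

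Member 9 was high on 1 array. It had -1.28, -3.39, -3.31 and -3.17 after S. iniae FKC at 12 h, against -3.45, -3.98, -3.20 and -3.94 after E. tarda FKC and -4.20, -3.23, -4.20 and -3.93 after PBS, and without S. iniae replicate 1 it no longer met the rule. Member 11 had PBS arrays that split into pairs, with -2.48, -2.51, -2.96 and -2.33 after S. iniae FKC against -2.27, -2.91, -4.65 and -4.76 after PBS. The PBS replicate 1 lay above every S. iniae array, replicate 2 among them, and replicates 3 and 4 far below. Members 4, 7, 10 and 11 were well above background on only 2 of 4 PBS arrays of 12 h, and members 9 and 12 on only 1. Their differences from PBS at 12 h are thus not firmly measured sizes. Member 13 had -0.42, 0.28, -1.08 and -1.12 after S. iniae FKC against -1.90, -1.15, -1.60 and -1.86 after PBS, groups that did not overlap but came within a small step.

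**Figure D2:**
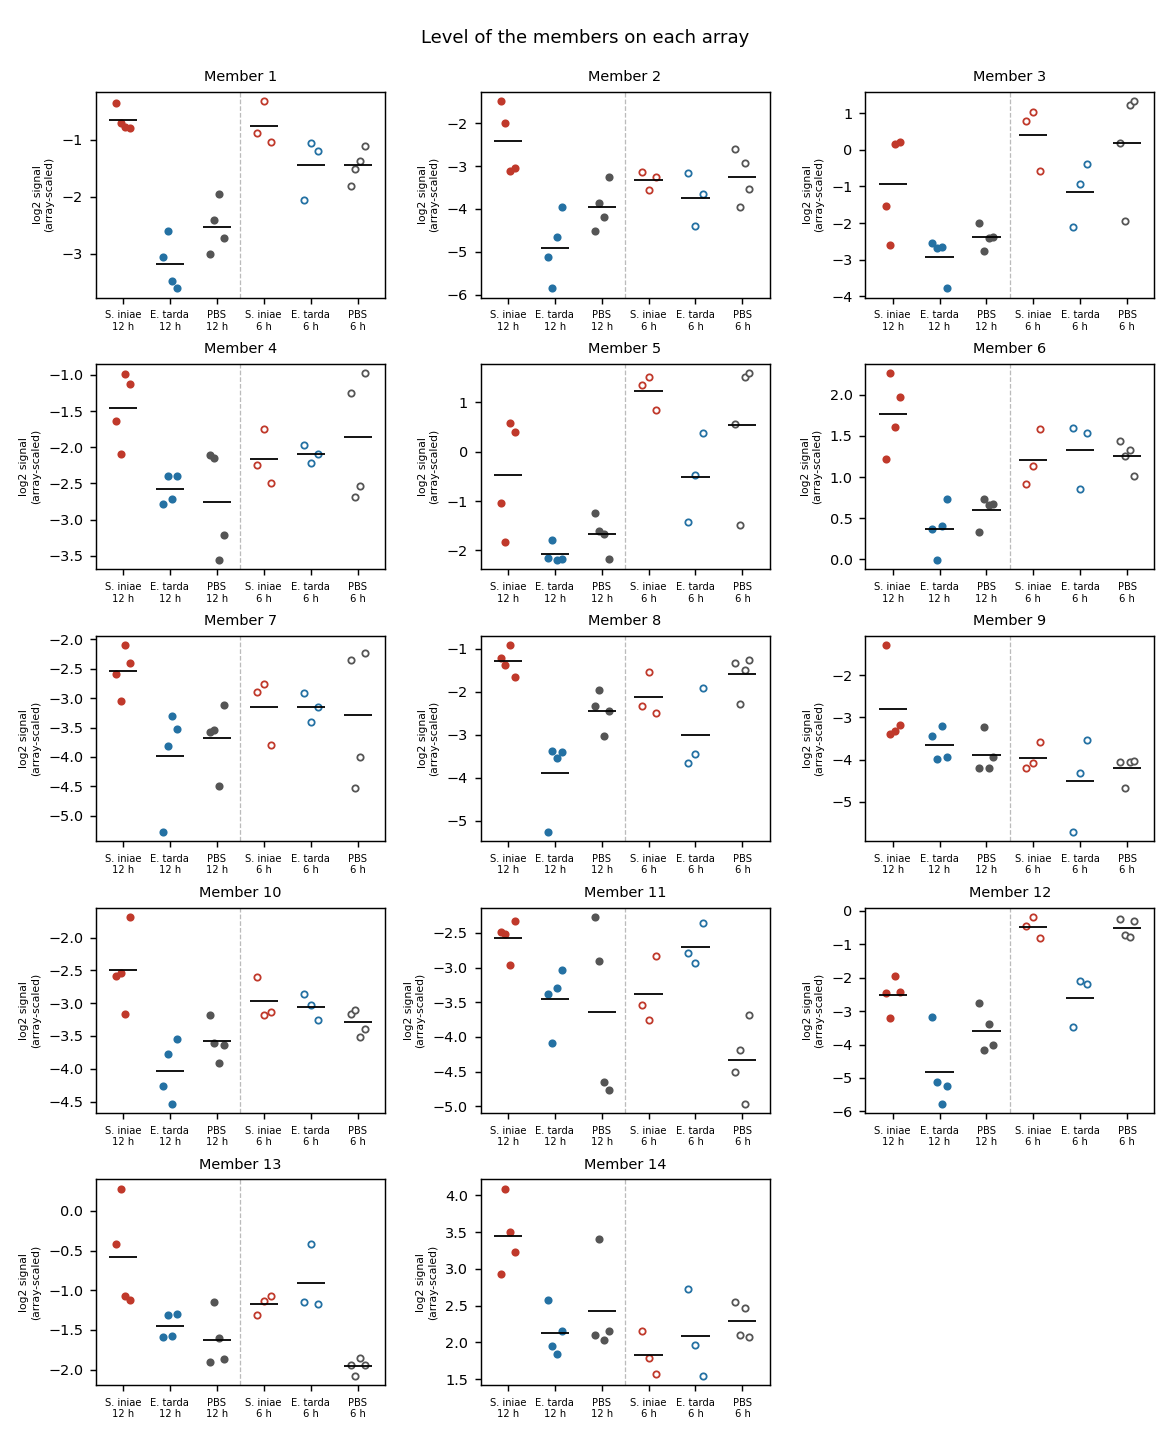
Level of each member on each of the 22 arrays, as log2 signal minus the 75th percentile of the array (y axis, own scale in each panel), by group; filled points are 12 h and open points 6 h, and bars are group means. Members 3, 5 and 12 stand higher after PBS at 6 h than after S. iniae FKC at 12 h on the mean, and member 1 stands apart on all S. iniae arrays of 12 h.

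Over the list, the S. iniae arrays of 12 h lay above all PBS arrays of 12 h in 8 of 14 members, where 7.99% of the probes tested did, and above all E. tarda arrays of 12 h in 10 of 14, where 10.4% did. The fit across all probes called 7 of 14 as higher after S. iniae FKC than after PBS at 12 h, where 5.82% of probes were, and 11 of 14 as higher than after E. tarda FKC, where 9.33% were. The first count was 3 without PBS replicate 3, and the second was 7 without replicate 1 of either preparation. The E. tarda arrays lay below all PBS arrays of 12 h in 1 of 14, member 8, where 18.9% of the probes tested did. The fit called 2 of 14, members 8 and 12, as lower after E. tarda FKC than after PBS, where 20.3% of probes were, and 1 of 14 without E. tarda replicate 3 or PBS replicate 3. The call of member 12 was lost in 5 of the 8 fits that left out 1 array, those without E. tarda replicate 2, 3 or 4 or PBS replicate 1 or 3 (limma adjusted p of 0.0875, 0.134, 0.0974, 0.130 and 0.0847). In 3 of these member 1 or 2 was called in its place. The call of member 8 was lost with normexp background correction and quantile normalization, at -0.31 (limma adjusted p = 0.173). The rule used these contrasts, so the counts describe the chosen members and test nothing. Members 3 and 12 were called higher than after E. tarda FKC though these arrays overlapped. In that comparison the calls of members 3, 4 and 7 held in 5 of 16, 5 of 15 and 8 of 15 alternative fits. The call of member 13 held in 11 of 16, and those of members 1, 2, 6, 8, 10, 12 and 14 in every alternative fit. On the 4 E. tarda arrays of 12 h, members 1, 7 and 8 were well above background on 3 and members 10 and 11 on 2. Members 2 and 9 were on 1, and member 12 on 0. Their differences from E. tarda FKC are thus not firmly measured sizes.

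The level of the PBS arrays was not the same at both times. In 10 of 14 members the mean was lower after PBS at 12 h than at 6 h, with a median difference of -0.67 over members, against -0.015 over all probes tested and -0.19 over the 272 probes with the S. iniae rise that failed the limit on E. tarda FKC. The difference was -1 or lower in 4 of 14 members, against 6.99% of the 272 probes and 3.91% of contig probes tested. The PBS arrays of 12 h lay below all those of 6 h in 4 of 14 members (1, 3, 6 and 12), where 5.17% of the probes tested did. Member 12 was the 1 member called lower, where 0.813% of the probes tested were. The PBS arrays of 12 h set the rule's baseline, and a low value there helped a probe to be chosen, so these shares are a description.

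Set against PBS at 6 h, the S. iniae arrays of 12 h gave another picture. Their mean was at least 1 higher in 4 of 14 members (9, 11, 13 and 14, of which 9 and 11 were not well above background on any PBS array of 6 h), between 0 and 1 higher in 7, and at least 1 lower in 3 (members 3, 5 and 12). They lay above all PBS arrays of 6 h in 5 of 14 members, where 10.3% of the probes tested did, and below all of them in 1, where 13.9% did. In members 1 and 13 the S. iniae arrays of 12 h lay above the PBS arrays of both times. The share of all probes tested that did so was not worked out, and the rule used the PBS arrays of 12 h, so this is a description. Within the S. iniae groups, the mean at 12 h was above that at 6 h in 11 of 14 members, with a median difference of 0.60, against -0.12 over all probes tested. Within the E. tarda groups it was below in 12 of 14, with a median of -0.92, against -0.14. Differences between times of FKC arrays, and those from PBS at 6 h, also cross slides, and the share of slide cannot be told apart. The PBS arrays of both times share a slide, but each time lies in its own row of it, so row and time cannot be told apart.

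**Figure D3:**
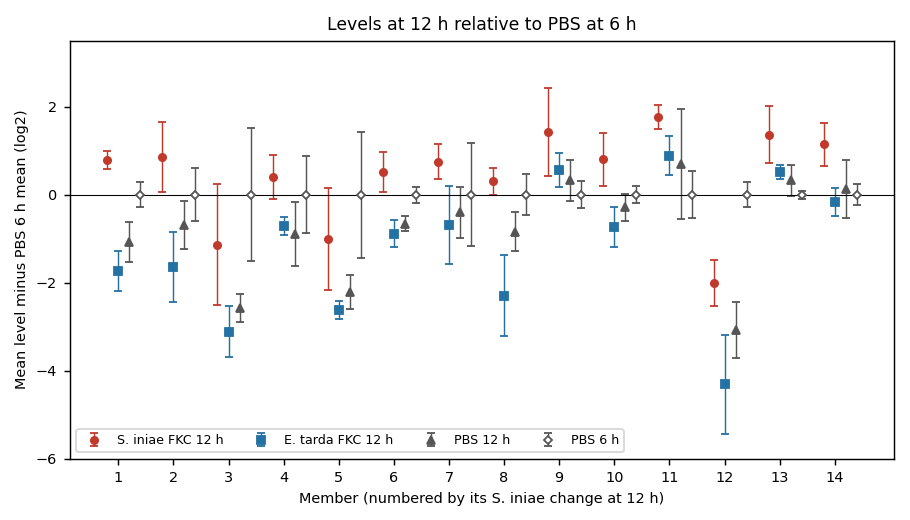
Mean level of each member at 12 h after S. iniae FKC, E. tarda FKC and PBS, minus its mean after PBS at 6 h (y axis, log2); bars are the SD of the group's arrays (n = 4 each), and open diamonds show PBS at 6 h at 0 with its own SD. The S. iniae mean lies below 0 for members 3, 5 and 12 and above 0 for the other 11.

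Members 3, 5 and 12 are the 3 whose S. iniae mean at 12 h lay below PBS at 6 h. Member 12 had levels of -2.47, -3.21, -1.96 and -2.42 after S. iniae FKC at 12 h, -3.19, -5.11, -5.77 and -5.23 after E. tarda FKC, and -2.76, -4.17, -3.38 and -4.01 after PBS. At 6 h it had -0.46, -0.18 and -0.82 after S. iniae FKC, -3.47, -2.11 and -2.20 after E. tarda FKC, and -0.23, -0.72, -0.80 and -0.29 after PBS. All arrays of 12 h thus lay below every S. iniae and PBS array of 6 h. Its mean was lower by 3.07 after PBS at 12 h than at 6 h. On the mean, S. iniae FKC at 12 h was nearer to the level of 6 h than the other groups of its time, but its arrays overlapped theirs. It was not well above background on any E. tarda array of 12 h, and S. iniae FKC at 12 h was at least 2.45-fold higher than E. tarda FKC, with measured means of -2.51 and -4.82. The measured PBS mean at 12 h was -3.58, with only 1 of 4 arrays well above background, so no least fold over E. tarda FKC is given.

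Member 3 had levels of -1.54, -2.59, 0.17 and 0.22 after S. iniae FKC at 12 h, against -2.54, -2.69, -2.65 and -3.78 after E. tarda FKC and -1.99, -2.77, -2.41 and -2.37 after PBS. Member 5 had -1.05, -1.82, 0.59 and 0.41 after S. iniae FKC at 12 h, against -2.15, -1.78, -2.20 and -2.18 after E. tarda FKC and -1.24, -1.61, -1.66 and -2.19 after PBS. In both, S. iniae replicates 3 and 4 stood high and replicate 2 lay among the PBS arrays, so the groups overlapped. After PBS at 6 h member 3 had 0.19, -1.95, 1.23 and 1.32 and member 5 had 0.56, -1.48, 1.52 and 1.59, with replicate 2 low in both.

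The levels of members 3 and 5 ran together, at a Pearson correlation of 0.97 over the 22 arrays, 0.96 over the 10 arrays of 6 h and 0.94 over the 22 arrays after each group's mean was taken off. The arrays share their RNA sample and scaling, so this is a description. Each of these 2 members had 9 probes above a correlation of 0.9 with it among the 10978 others with complete values, the highest non-member at 0.97 for member 3 and 0.96 for member 5. Member 12 correlated with them at 0.85 and 0.84 over the 22 arrays, and at 0.46 and 0.40 once group means were taken off. Members 4 and 7 ran together at 0.80, and at 0.73 without group means.

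**Figure D4:**
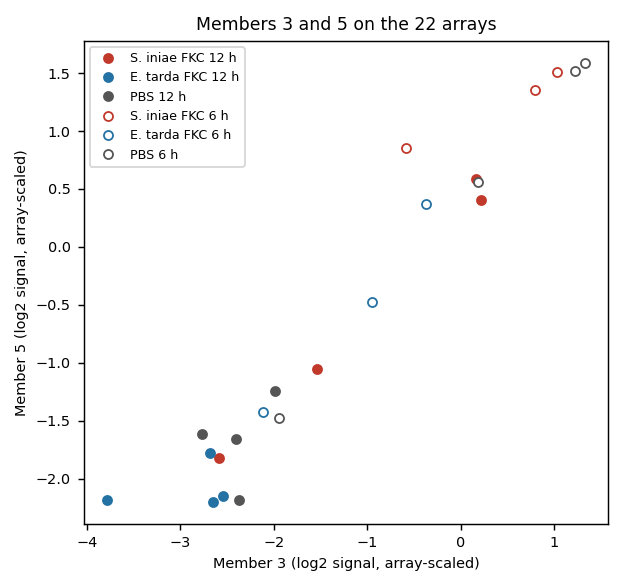
Level of member 3 (x axis) against member 5 (y axis), each as log2 signal minus the 75th percentile of the array, for the 22 arrays; filled points are 12 h and open points 6 h. The S. iniae FKC arrays of 12 h split into 2 that lie near 0 on both axes and 2 that lie near the E. tarda and PBS arrays of 12 h.

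The list as a whole showed little common movement beyond the choice, though some pairs ran together. Over all 91 pairs the median correlation was 0.42 on the 22 arrays, which include the arrays that chose the members, and 0.05 on the 10 arrays of 6 h, where 42 pairs were below 0. Single pairs on the 6 h arrays ran from -0.71 to 0.96, with members 4 and 7 at 0.91 and members 8 and 12 at 0.78. The same was not worked out for pairs of other probes. The probes most like the 4 members given by ID, outside the list, reached a mean correlation of 0.64 and 0.62 with them over the 22 arrays. The median of the members on each array, each member taken relative to its own mean, was 0.69 to 0.91 on the S. iniae arrays of 12 h, -0.87 to -0.32 on the E. tarda arrays of 12 h and -0.65 to -0.24 on the PBS arrays of 12 h. At 6 h it was 0.23 to 0.29 after S. iniae FKC, 0.02 to 0.28 after E. tarda FKC and -0.45 to 0.63 after PBS, with overlap among the 3 groups.

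The first tested comparison asked whether the members differed after S. iniae FKC at 6 h already. None of the 14 did by limma at an adjusted p under 0.05, where 1.59% of the probes tested were called, and 2 of 14 (members 1 and 13) had an unadjusted p under 0.05, which 13.8% of all probes tested had. Measured differences ran from -0.52 to 0.96, the highest being that of member 11, which was not well above background on any PBS array of 6 h, and 9 of 14 were above 0. Their median was 0.17, against -0.0031 over all probes tested, and it was -0.048 without PBS replicate 2. Leaving out S. iniae replicate 1, 2 or 3 gave 0.062, 0.029 and 0.30, and leaving out PBS replicate 4 gave 0.30. The spike-in probes differed by -0.52 to 0.14 in this comparison. Of the 272 probes with the S. iniae rise at 12 h that failed the limit on E. tarda FKC, 35 rose and 0 fell in this comparison, with a median of 0.39.

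Member 13 came nearest to a call. Its level was -1.32, -1.13 and -1.08 after S. iniae FKC at 6 h, against -1.94, -2.07, -1.86 and -1.94 after PBS, and the groups did not overlap. The difference was 0.78 (95% interval 0.20 to 1.36, limma adjusted p = 0.195), and with normexp background correction and quantile normalization it was 0.58 (limma adjusted p = 0.0308). Non-overlap upward was seen in 2 of 14 members, 1 and 13, where 8.78% of the probes tested showed it. The intervals differed in width between members. Those of members 3 and 12, -1.32 to 1.74 and -1.01 to 1.05, held a 2-fold change in either direction, and those of members 6 and 10, -0.56 to 0.47 and -0.28 to 0.93, held none.

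The second asked the same of E. tarda FKC at 6 h. Of the 14 members, 2 rose and 2 fell, where 14.1% and 14.0% of the probes tested did, and the 4 calls are near the background share of 28.1%. The E. tarda arrays lay above all PBS arrays in 2 members and below all of them in 1, where 17.5% and 16.9% of the probes tested did. Without E. tarda replicate 2 the calls were 1 up and 1 down. The median over members was -0.22, against -0.013 over all probes tested, and the spike-in probes differed by -0.95 to -0.0045. Of the 272 probes above, 190 rose and 1 fell, with a median of 1.59. They were set apart from the members by their E. tarda difference at 12 h, so this contrast is a description.

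Member 13 rose after E. tarda FKC at 6 h, to -1.15, -0.42 and -1.18, against -1.94, -2.07, -1.86 and -1.94 after PBS, without overlap. The difference was 1.04 (SE 0.28, limma adjusted p = 0.00915), and without E. tarda replicate 2 it was 0.79 (limma adjusted p = 0.0744). At 12 h the E. tarda arrays of this member were at -1.59, -1.31, -1.57 and -1.31, overlapping PBS at 12 h.

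Member 11 rose as well, with levels of -2.79, -2.94 and -2.36 after E. tarda FKC at 6 h against -4.51, -4.19, -4.96 and -3.69 after PBS. It was not well above background on any PBS array of 6 h. With PBS raised to the detection limit of each array where it lay below, the E. tarda FKC mean was at least 2.29-fold higher. The call (limma adjusted p = 0.0151) is for the measured means, -2.70 and -4.34. The call was lost without E. tarda replicate 3 (limma adjusted p = 0.0651). After S. iniae FKC at 6 h member 11 had -3.55, -3.75 and -2.84, a measured mean of -3.38 against -4.34 after PBS. That difference did not pass the test (95% interval -0.04 to 1.96, limma adjusted p = 0.386), so no least fold is given.

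Member 12 fell after E. tarda FKC at 6 h by 2.08 (SE 0.49, limma adjusted p = 0.00403), with no overlap between the groups. Its S. iniae difference from PBS at 6 h was 0.022 (limma adjusted p = 0.992). It was well above background on only 2 of 3 E. tarda arrays of 6 h, as was member 8, so their falls are not firmly measured sizes. Member 8 had levels of -3.65, -3.44 and -1.91 after E. tarda FKC at 6 h, against -1.35, -2.29, -1.49 and -1.28 after PBS. It fell by 1.40 (SE 0.45, limma adjusted p = 0.0273), but replicate 3 overlapped PBS. The call was lost without E. tarda replicates 1 or 2 (limma adjusted p of 0.115 and 0.126), without PBS replicates 1, 3 or 4 (limma adjusted p of 0.0630, 0.0559 and 0.0611) and in the fit of the compared groups alone (limma adjusted p = 0.0630).

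Members 3 and 5 had E. tarda differences of -1.34 and -1.06 at 6 h that did not pass the test (limma adjusted p of 0.178 and 0.223). Member 3 stood at -2.12, -0.95 and -0.37 after E. tarda FKC and member 5 at -1.43, -0.47 and 0.37, and both groups overlapped PBS through its low replicate 2. Without that replicate both were called, at -2.06 (limma adjusted p = 0.0268) and -1.73 (limma adjusted p = 0.0233). Members 1 and 4, at 0.016 and -0.23, were called lower with normexp background correction and quantile normalization, at -0.46 (limma adjusted p = 0.0166) and -0.51 (limma adjusted p = 0.0454).

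**Figure D5:**
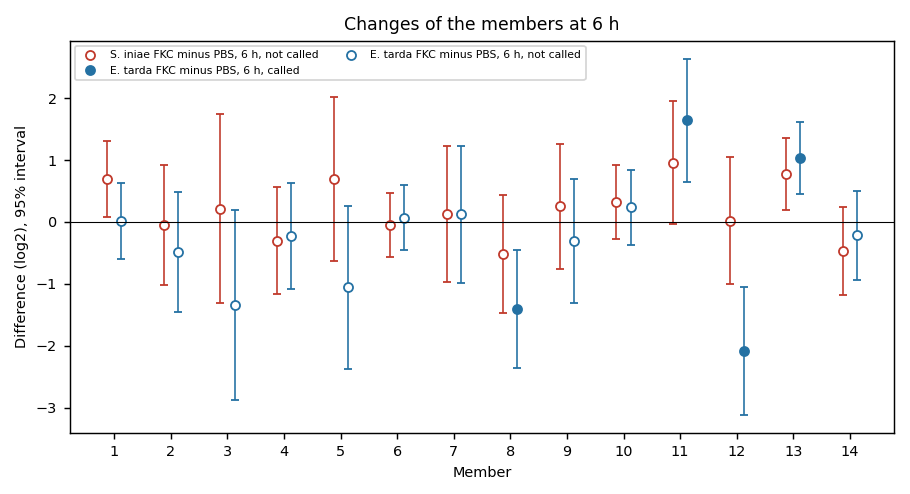
Difference from PBS at 6 h on the log2 scale for each member after S. iniae FKC (red) and E. tarda FKC (blue), with the 95% interval of the limma fit; filled points passed an adjusted p under 0.05 over all probes tested and open points did not. None of the S. iniae differences and 4 of the E. tarda differences, those of members 8, 11, 12 and 13, are filled.

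The third set the preparations against each other at 6 h, within slide 1, where the spike-in probes differed by 0.15 to 0.43. Each preparation lay in its own row of that slide, so row and preparation cannot be told apart. S. iniae FKC was higher in 1 of 14 members and lower in 0, where 6.29% and 7.74% of the probes tested were called. The call is member 12, with levels of -0.46, -0.18 and -0.82 after S. iniae FKC against -3.47, -2.11 and -2.20 after E. tarda FKC. The difference was 2.11 (SE 0.52, 95% interval 1.01 to 3.21, limma adjusted p = 0.0114). Only 2 of 3 of these E. tarda arrays were well above background, so it is not a firmly measured size. In members 1, 5 and 12 the S. iniae arrays lay above all E. tarda arrays of 6 h, where 14.9% of the probes tested did. For member 5 the difference was 1.75 (95% interval 0.33 to 3.16, limma adjusted p = 0.0934), and for member 1 it was 0.68 (limma adjusted p = 0.159). Member 1 was called with normexp background correction and quantile normalization, at 0.52 (limma adjusted p = 0.0192). Of the 272 probes above, 1 was higher and 150 were lower after S. iniae FKC than after E. tarda FKC at 6 h. Since their E. tarda difference at 12 h set them apart from the members, this too is a description.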

How the data were processed

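The authors' deposited scanner files hold spot intensity, already background-subtracted, from Feature Extraction version 10.7.3.1 per the file headers. Version 9.5.3.1 is the one in the submitters' processing notes. The authors also deposited log2 values, which lay within 0.1 of log2 signal minus the 75th percentile of the array and minus the per-probe median of PBS arrays of the same time. Their column medians ran from -0.274 to 0.0274, and they were used as an alternative. Here the log2 processed signal of the 14661 non-control spots of an array, minus its 75th percentile, was averaged by probe without outlier spots, and no member had an outlier spot. Testing was limited to the 11066 probes detected above background on 3 or more of the 22 arrays, which include all 14 members by their rule. The means of the 6 groups were fitted together with limma 3.58.1 in R 4.3.3 (lmFit, eBayes), with Benjamini-Hochberg adjustment over all probes tested. Signed differences are the first group named minus the other. The fit was tested on simulated data.

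The IDs printed are the 2 members with the highest S. iniae difference and the 2 others with the lowest E. tarda difference, among members detected on all FKC arrays of 12 h. The members, the rule and the alternatives were chosen with earlier results of these data known. Lists of immune and cell-type genes could not be used, since no name matched. Alternatives were quantile normalization after normexp correction (offset 50), scaling to the median, the authors' table, other filters, a fit limited to the compared groups, a trended robust eBayes, a replicate block and leaving out each array. The normexp alternative used the median spot and background signals in place of the processed signal. It thus changed the input as well as the normalization. The number of arrays limits the precision.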

Additional observations from a re-analysis of the deposited data

Results flagged for a closer look

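In groups of 4 arrays, 6 of 56 combinations of member and group held an array farther from the rest than Dixon's 95% limit allows. For values that took no part in a choice, chance would give about 1 in 20, or 2.8. The rule used the 12 h groups, where a stray array could help a probe to be chosen. The 6 are thus a description and were not tested against 2.8. After S. iniae FKC at 12 h, replicate 1 of member 9 was high at -1.28, against -3.39 to -3.17 on the other arrays. After E. tarda FKC at 12 h, replicate 4 of member 3 was low at -3.78, against -2.69 to -2.54, replicate 2 of member 5 was high at -1.78, against -2.20 to -2.15, and replicate 1 of member 8 was low at -5.26, against -3.54 to -3.39. After PBS, replicate 2 of member 14 at 12 h was high at 3.41, against 2.04 to 2.16, and replicate 2 of member 9 at 6 h was low at -4.68, against -4.07 to -4.03. Member 9 was not well above background on any PBS array of 6 h.

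Member 12 differed between the 2 preparations at 6 h. The S. iniae level minus the E. tarda level was 2.11 by the limma test of that difference (adjusted p = 0.0114, range over alternatives 5.33e-05 to 0.0496). It was 1 of 14 members called higher, where 6.29% of the probes tested were. Row of the slide and preparation cannot be told apart in this comparison.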

How the results depend on the processing

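The list itself depends on the processing. It held 14 members, and 26 with detection on at least 3 of the 4 S. iniae arrays of 12 h. It held 2 with an S. iniae limit of 1.5 and 2 with normexp and quantile normalization, of which 1, member 6, is among the 14. The cause was not tested. Scaling to the median gave 18, of which 10 are among the 14, and moved the median E. tarda difference from PBS at 12 h over all probes from -0.12 to about 0. Without 1 array of 12 h the list held 11 to 25 members, with 25 and 22 without S. iniae replicates 2 and 4, and 8 to 14 of the original 14 were kept. Where an S. iniae array was left out, detection was asked only on the S. iniae arrays that remained. Those lists thus differ in the detection filter as well as in the array. Members 1, 2, 3 and 6 were kept in all 12 settings without 1 array.

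At 6 h, calls of S. iniae FKC against PBS were 0, or 1 with normexp and quantile normalization, and 0 without any single array. Calls of E. tarda FKC against PBS were 4, or 1 among the 5 members tested when all arrays had to be detected, and 2 to 6 without 1 array. Calls of S. iniae against E. tarda FKC were 1, or 2 with normexp and quantile normalization, and 1 without any single array. With detection on all arrays they were 0, but member 12, the 1 called, was then not tested. The medians against PBS were -0.048 to 0.30 for S. iniae FKC and -0.38 to -0.12 for E. tarda FKC without 1 array. At 12 h, calls of S. iniae FKC against PBS were 7, or 3 among the 5 members tested with detection on all arrays. They were 3 when only the compared groups were fitted, and 3 to 7 without 1 array. Calls of S. iniae against E. tarda FKC were 11, and 7 to 11 without 1 array. With detection on all arrays, all 5 members tested were called, among them member 5, which was not among the 11. Calls of E. tarda FKC against PBS were 2, or 1 with scaling to the median, 1 with no filter and 1 when only the compared groups were fitted. They were 1 to 2 without 1 array, and 0 with detection on all arrays, where members 8 and 12 were not tested. In no comparison did every same-numbered pair of arrays deviate together at a correlation over 0.1. The correlations were 0.061, 0.083 and -0.068 for S. iniae FKC and PBS at 6 h, 0.141, 0.064 and 0.214 for S. iniae and E. tarda FKC at 6 h, and -0.151 to 0.275 over the 12 h comparisons, so the numbers were not taken to pair the samples. With the replicate block the 6 h calls were 0, 4 and 1, and the calls of S. iniae against E. tarda FKC at 12 h were 9.
For the 4 members given by ID, 321 of the 362 values under alternatives stayed on their side of the threshold, 36 were no longer called and 5 became called. Most of the 362 belong to comparisons that were not called, where no call could be lost. At 12 h against PBS, the call of member 4 held in 8 of 15 alternatives and that of member 14 in 8 of 16. At 12 h against E. tarda FKC, the calls of members 3, 4 and 14 held in 5 of 16, 5 of 15 and 16 of 16. Of the 362, 10 changed sign, with no call in either setting.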
